A study of Mus musculus with 6 samples.

Results

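The RNA of 38 interferon-stimulated genes was followed in mouse liver. The genes were taken by symbol and matched to Ensembl IDs through GENCODE M21, and each matched 1 of the 55416 rows of the count table (Ddx58 is called Rigi in newer annotations). Of the 38, 27 are textbook targets of type I interferon and 11 are known chiefly as targets of interferon-gamma, although many genes of both sets respond to both cytokines. All 38 passed the filter on low counts, which kept 17083 genes.

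The libraries came from whole liver of male mice. The WT group (n = 3) carried Ephb2flox/flox without Cre, and the KO group (n = 3) carried Ephb2flox/flox with PdgfrbCreERT2, a tamoxifen-inducible recombinase under the promoter of a receptor found on stellate cells, pericytes and fibroblasts. Both groups received tamoxifen for 5 days at 8 to 10 weeks of age and then a choline-deficient, amino-acid-defined diet for 8 weeks, with 45% of calories from fat, 0.1% methionine and 1% cholesterol. The series asks what loss of this ephrin-B receptor in stellate cells does to fibrosis of the fatty liver. Hepatocytes, macrophages and lymphocytes, which respond to interferon, are not named as targets of this driver. Since all Cre-bearing animals were also floxed, effects of Cre and of the deletion cannot be told apart. Total counts ran from 21160690 to 26339251 per library, and the 5 hepatocyte markers (Alb and others) summed to 40213 to 53826 CPM (the count of a gene per total count of the library, scaled to a common size and by TMM factors). Ephb2 itself stood at 9.46, 8.28 and 12.4 CPM in the WT and 6.01, 8.87 and 6.95 CPM in the KO libraries, which overlapped (edgeR adjusted p = 0.850). How the numbered replicates of a genotype relate is not in the labels, and the p-values cover the spread seen among these libraries alone.

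Type I interferons signal through the receptor chains Ifnar1 and Ifnar2 and the kinases Jak1 and Tyk2. A complex that holds Stat2 and Irf9 then binds the interferon-stimulated response element (ISRE) in promoters of antiviral genes. Interferon-gamma, made mainly by T and NK cells, signals through Ifngr1, Ifngr2, Jak1 and Jak2. It acts through the gamma-activated site (GAS) and induces Irf1, guanylate-binding proteins, immunity-related GTPases and genes of antigen processing. In fatty liver both pathways are known to be active in hepatocytes, macrophages and infiltrating lymphocytes.

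Promoter stretches of 6 members are shown because they carry the sequence elements through which the 2 pathways are known to act. They come from RefSeq on GRCm38.p6, read 5′ to 3′ on the gene's strand and lie wholly upstream of RefSeq's start of the gene. Capitals mark matches to the ISRE (GAAA and GAAA with any 2 bases between) or the GAS (TTC and GAA with any 3 bases between), searched on both strands, and matches may overlap.
Isg15, chr4:156200850-156200921, minus strand, ISRE: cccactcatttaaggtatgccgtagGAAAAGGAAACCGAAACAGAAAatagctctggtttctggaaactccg
Ifit3, chr19:34583348-34583441, plus strand, ISRE: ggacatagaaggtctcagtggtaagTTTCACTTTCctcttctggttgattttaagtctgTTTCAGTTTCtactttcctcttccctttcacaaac
Stat2, chr10:128270251-128270310, plus strand, ISRE: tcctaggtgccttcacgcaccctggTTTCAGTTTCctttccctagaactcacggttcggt
Gbp7, chr3:142530205-142530317, plus strand, GAS and ISRE: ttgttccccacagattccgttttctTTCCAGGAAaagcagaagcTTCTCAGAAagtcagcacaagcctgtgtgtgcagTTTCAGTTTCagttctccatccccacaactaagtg
Igtp, chr11:58199486-58199555, plus strand, GAS and ISRE: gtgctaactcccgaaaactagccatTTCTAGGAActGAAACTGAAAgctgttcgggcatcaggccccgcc
Irgm2, chr11:58214877-58214947, plus strand, GAS and ISRE: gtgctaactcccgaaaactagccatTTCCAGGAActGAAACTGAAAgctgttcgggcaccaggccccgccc
The Isg15 stretch held 3 overlapping ISRE words and the Ifit3 stretch 2 separate ones, while Gbp7, Igtp and Irgm2 held both elements. Igtp and Irgm2 were identical at 68 of 70 bases (97.1%) compared without gaps. In GENCODE M21 the Irgm2 stretch lies in an intron, since that annotation holds an earlier start of Irgm2, and the other stretches lie outside all annotated genes.

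Over windows of 300 bases (250 before to 50 after the start), 28 of the 38 members had an entry. The ISRE letters occurred in 10 of 19 type I members (52.6%) and 6 of 9 interferon-gamma members (66.7%), against 1079 of all 27025 genes (3.99%). The GAS letters occurred in 6 of 19 type I members (31.6%) and 4 of 9 interferon-gamma members (44.4%), against 9.55% of all genes. Both elements thus appeared in both sets. The entries of Ifi27l2a, Oas2, Mx1, Mx2, Usp18, Zbp1, Parp14, Dhx58, Gbp6 and Iigp1 were missing.

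No interferon-stimulated gene passed the test between the genotypes. Type I members lay around 0, with 13 of 27 higher and 14 lower in KO liver and a median log2 fold change of -0.0059, against -0.0048 over all genes tested. Interferon-gamma members lay higher in KO liver in 10 of 11 cases, with a median of 0.20, where 49% of all genes lay above 0. That median turned on which libraries were in the fit. Without KO replicate 1 it was -0.0060, with 5 of 11 members higher and 48.9% of all genes above 0. Leaving out WT replicate 1 as well, a choice made after seeing the data, gave 0.18. Then 8 of 11 members lay higher and 49.9% of all genes lay above 0. edgeR's quasi-likelihood test called 0 of 38 members and 0% of the 17083 genes (smallest adjusted p = 0.850 in either set). At an unadjusted p under 0.05 there were 0 of 38 members and 5.19% of all genes (3.08% higher and 2.1% lower in KO liver). DESeq2 and limma-voom also called 0 members. The CPM of the genotypes overlapped in each of the 38 members, whereas they did not overlap in 11.1% of all genes (6.21% higher and 4.9% lower in KO liver). In whole liver, fewer cells of a type and less RNA per cell cannot be told apart.

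**Figure D1:**
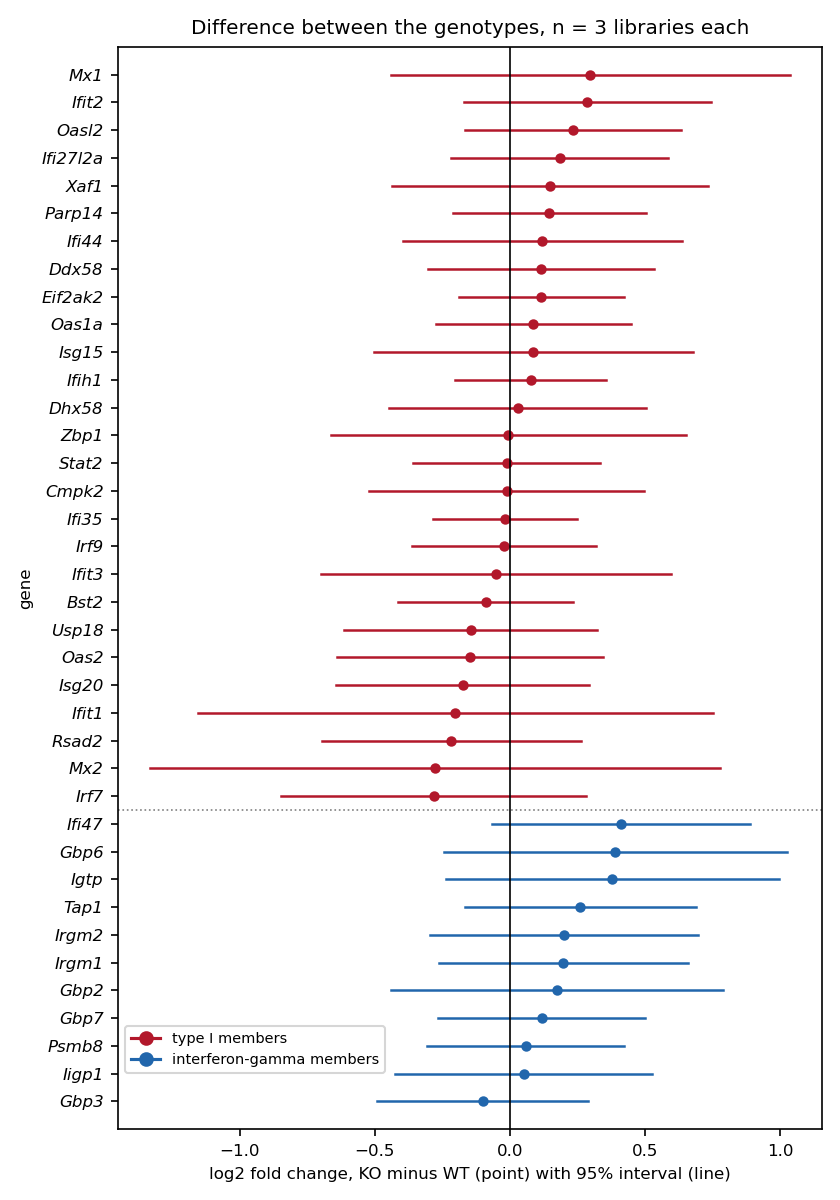
Log2 fold change (x axis, KO minus WT, point) with its 95% interval (line) for each member (y axis), type I members in red and interferon-gamma members in blue, n = 3 libraries per genotype. Every interval includes 0, and 10 of the 11 blue points lie right of 0.

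The 95% intervals left room for sizeable differences. They reached from -1.33 (Mx2) to 1.04 (Mx1) on the log2 scale among type I members and from -0.49 (Gbp3) to 1.02 (Gbp6) among interferon-gamma members. The standard errors had a median of 0.20 in the type I set and 0.21 in the interferon-gamma set, against 0.16 over all genes. Interferon-stimulated genes varied more between livers than most genes did. Their highest library exceeded their lowest by a median of 1.77-fold, against 1.46-fold over all genes tested and 1.40-fold over genes with a mean CPM of at least 1.

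The variation followed single animals, and a different animal led each set. WT replicate 1 held the highest CPM in 18 of 27 type I members (66.7%), a place it held in 17.1% of all genes. KO replicate 1 held the highest CPM in 8 of 11 interferon-gamma members (72.7%), against 11.9% of all genes, and in 0 of 27 type I members. The other 3 interferon-gamma members were highest in WT replicate 1. WT replicates 2 and 3 were low in both sets and together were the lowest library in 23 of 27 type I members and 9 of 11 interferon-gamma members. Over all genes WT replicate 2 was the lowest library in 13.2% and WT replicate 3 in 24%.

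**Figure D2:**
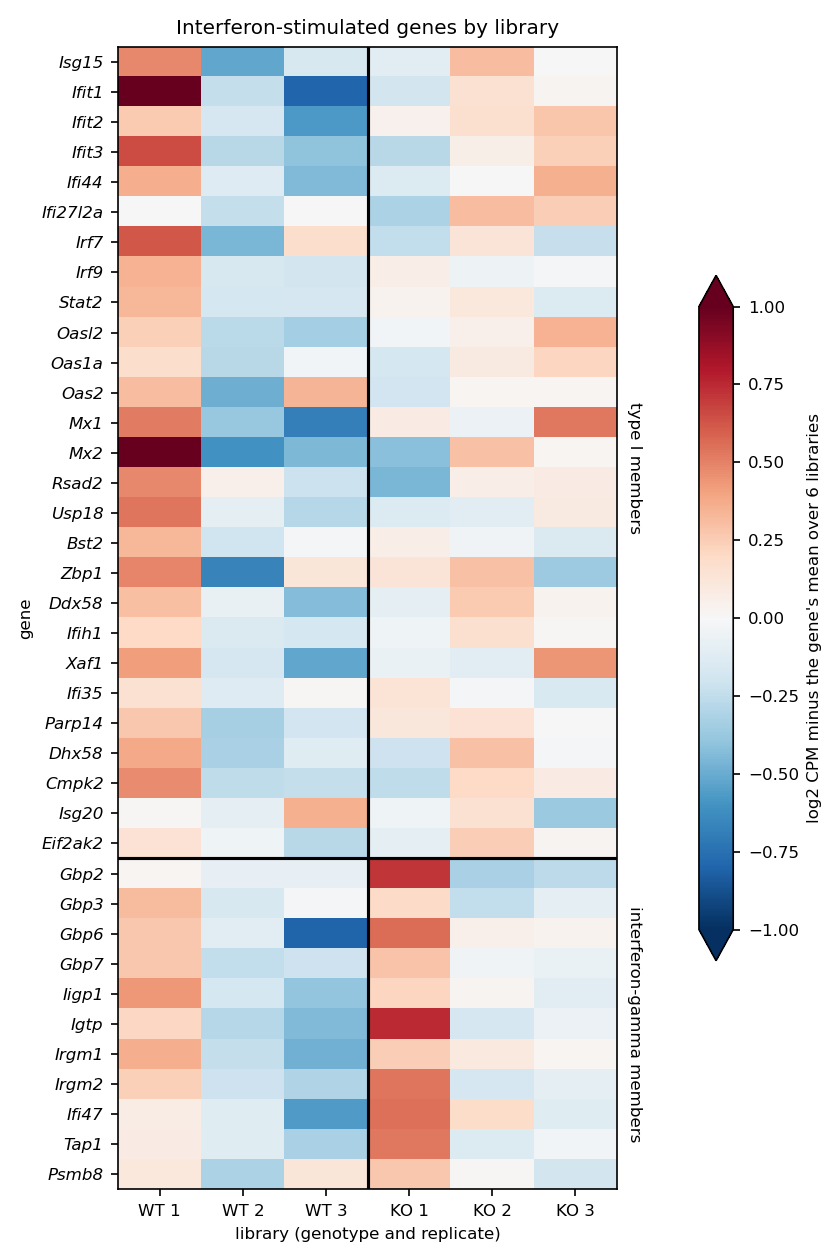
Log2 CPM of each member (rows) minus its mean over the 6 libraries (columns), red above and blue below that mean, with colours saturated at 1 and -1. The column of WT replicate 1 is red across most type I rows, and that of KO replicate 1 is red across the interferon-gamma rows and pale or blue across the type I rows.

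The mean of the type I members, each centred on its own mean, stood on the log2 scale at 0.40, -0.25 and -0.21 over the WT libraries, and at -0.10, 0.11 and 0.059 over the KO libraries. The corresponding mean of the interferon-gamma members stood at 0.22, -0.19 and -0.32 over the WT libraries, against 0.44, -0.065 and -0.087 over the KO libraries. Both sets were thus raised in WT replicate 1, and the interferon-gamma set alone in KO replicate 1. The difference between the means of the 2 sets in 1 library, which no scaling of that library alters, was 0.54 in KO replicate 1 and lay between -0.18 and 0.066 in the other 5 libraries. These means describe sets of genes that share their libraries and were not tested.

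**Figure D3:**
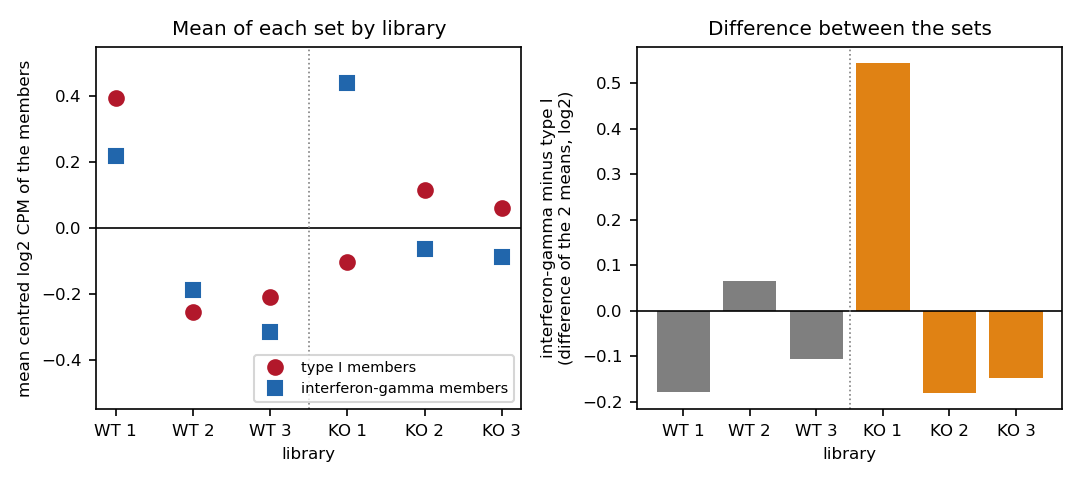
Left, mean centred log2 CPM of the 27 type I members (red circles) and the 11 interferon-gamma members (blue squares) in each library; right, interferon-gamma minus type I in each library (grey WT, orange KO). KO replicate 1 stands at 0.54 in the right panel and the other 5 libraries between -0.18 and 0.066.

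Among the signal transducers, Irf7, the factor that amplifies interferon-alpha production, was at 65.5, 31.1 and 48.2 CPM in WT against 36.0, 46.5 and 36.3 CPM in KO libraries. WT replicate 1 was highest and WT replicate 2 lowest, so the WT libraries enclosed all KO libraries. Its log2 fold change was -0.28 (SE 0.25, edgeR adjusted p = 0.858). Stat2, the subunit that carries the activation domain of the type I complex, was at 101, 71.2 and 71.4 CPM in WT against 82.3, 86.4 and 73.0 CPM in KO libraries, with a log2 fold change of -0.01 (SE 0.15). Its direction turned to 0.17 without WT replicate 1. Irf9, the DNA-binding subunit, was also highest in WT replicate 1, at 51.7 CPM against 35.7 to 42.5 CPM elsewhere.

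The ubiquitin-like protein Isg15 is conjugated to other proteins during antiviral responses, and Usp18 removes it and damps the type I receptor. Isg15 (chromosome 4, 156199424 to 156200818, minus strand) was at 11.8, 5.88 and 7.56 CPM in WT against 7.84, 10.5 and 8.42 CPM in KO libraries. The group means of 8.42 ± 3.07 and 8.91 ± 1.38 CPM (SD, n = 3) were close and WT replicate 1 was highest (log2 fold change 0.09, 95% interval -0.50 to 0.68). Usp18 was at 33.1, 21.4 and 18.7 CPM in WT against 20.7, 21.2 and 24.3 CPM in KO libraries. Without WT replicate 1 its log2 fold change went from -0.15 to 0.13.

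Effectors that act on viral RNA showed the same lead of WT replicate 1 in some members and of KO replicate 3 in others. Ifit1, which binds RNA lacking cap methylation, spanned the widest range, at 18.4, 7.56 and 5.12 CPM in WT against 7.89, 9.94 and 9.14 CPM in KO libraries, a 3.60-fold span. Its log2 fold change of -0.20 (SE 0.41) became 0.49 without WT replicate 1. Ifit2, a related RNA-binding protein, had the smallest p of this role, at 19.8, 14.6 and 11.0 CPM in WT against 16.9, 18.4 and 20.0 CPM in KO libraries (log2 fold change 0.29, SE 0.20, edgeR adjusted p = 0.850). KO replicate 3 and WT replicate 1 were nearly level at the top. Eif2ak2, the RNA-activated kinase PKR that blocks translation, was at 43.9, 38.4 and 32.8 CPM in WT against 37.2, 47.0 and 40.5 CPM in KO libraries, with KO replicate 2 at the top. The oligoadenylate synthetase relatives Oasl2 and Oas1a were highest in KO replicate 3, at 38.6 and 16.1 CPM, and Oas2 and the exonuclease Isg20 in WT replicate 3, at 19.2 and 6.17 CPM. Reads may be shared in this role: 31.7% of 100-base windows of the Ifit3 transcript occurred in another gene's transcripts (Ifit3b), and 40.9% of those of Oas1a (Oas1g).

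Of the proteins that act on virus entry, release or nucleotides, the dynamin-like GTPase Mx2 (chromosome 16, 97535308 to 97560900, plus strand) had a 3.43-fold span, at 19.6, 5.71 and 6.36 CPM in WT against 6.49, 10.7 and 8.82 CPM in KO libraries. WT replicate 1 lay far above every other library, and the log2 fold change of -0.28 (SE 0.46) turned to 0.52 without it. GENCODE M21 lists Mx2 as a polymorphic pseudogene, a gene that is intact in some mouse strains and broken in others. Rsad2 (viperin), an enzyme that makes a chain-terminating nucleotide, was at 27.4, 20.3 and 16.9 CPM in WT against 14.2, 20.5 and 20.7 CPM in KO libraries (log2 fold change -0.22, SE 0.21, edgeR adjusted p = 0.864). Bst2 (tetherin), which holds budding virions at the membrane, was at 129, 89.7 and 102 CPM in WT against 108, 101 and 93.1 CPM in KO libraries, with a log2 fold change of -0.09 (SE 0.14). Mx1, the relative of Mx2, was highest in KO replicate 3, with WT replicate 1 next at 8.96 CPM and WT replicate 3 lowest at 3.83 CPM. Cmpk2, a mitochondrial nucleotide kinase, was highest in WT replicate 1, at 19.2 CPM against 11.6 to 15.9 CPM elsewhere. Per length of exon Bst2 was the most abundant of the 38, at 115 CPM per kb averaged over the 6 libraries, followed by Ifi27l2a at 35.5 and Iigp1 at 25.5. The lowest value was that of Gbp6, at 1.41. Since 82.9% of the 100-base windows of the Gbp6 transcript occurred in transcripts of other genes, its count and its place are uncertain.

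Among the cytoplasmic sensors of viral nucleic acids, WT replicate 1 and KO replicate 2 stood highest. Ifih1 (MDA5) was at 76.5, 60.1 and 58.8 CPM in WT against 64.5, 74.4 and 67.2 CPM in KO libraries (log2 fold change 0.08, SE 0.12). Ddx58 (RIG-I) was at 72.9, 56.3 and 43.9 CPM in WT against 55.5, 71.0 and 60.8 CPM in KO libraries (log2 fold change 0.12, SE 0.18). The genotypes overlapped in both. The regulator Dhx58 (LGP2) and Zbp1, a sensor of Z-form nucleic acids, were likewise highest in these libraries, at 19.1 and 18.0 CPM for Dhx58 and 23.9 and 20.9 CPM for Zbp1.

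Of the remaining type I members, Parp14, an ADP-ribosyltransferase, was at 153, 101 and 111 CPM in WT against 137, 140 and 126 CPM in KO libraries, so WT replicate 1 lay above and the other WT libraries below all KO libraries (log2 fold change 0.15, SE 0.16). Ifi27l2a, a small mitochondrial and membrane protein, departed from this order, at 16.2, 13.7 and 16.3 CPM in WT against 13.1, 20.1 and 19.3 CPM in KO libraries (log2 fold change 0.18, SE 0.17, edgeR adjusted p = 0.862). Ifi44 and the pro-apoptotic Xaf1 had WT replicate 1 and KO replicate 3 close together at the top, at 14.4 and 14.3 CPM for Ifi44 and 17.6 and 17.9 CPM for Xaf1. Ifi35, a leucine zipper protein, hardly varied, from 20.9 CPM in KO replicate 3 to 25.8 CPM in WT replicate 1.

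The type I set as a whole turned on WT replicate 1. Without it, 23 of 27 type I members lay higher in KO liver, the median was 0.25 and 49.1% of all genes lay above 0. In that fit 8 of the 38 members, 4 of each set, had an unadjusted p under 0.05, against 3.8% of all genes, all 8 higher in KO liver and none past adjustment (edgeR adjusted p = 0.920 for each). They were Ifit2, Oasl2, Mx1, Parp14, Gbp6, Iigp1, Irgm1 and Ifi47. WT replicate 1 was the highest library in 21 of the 38 members, against 17.1% of all genes. Leaving it out lowers the WT mean of such members, so a move toward higher in KO liver followed from that choice. These counts are thus a description and no test of the members. Without both WT replicate 1 and KO replicate 1, 25 of 27 type I members and 8 of 11 interferon-gamma members lay higher in KO liver, where 49.9% of all genes did, and the medians were 0.33 and 0.18.

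**Figure D4:**
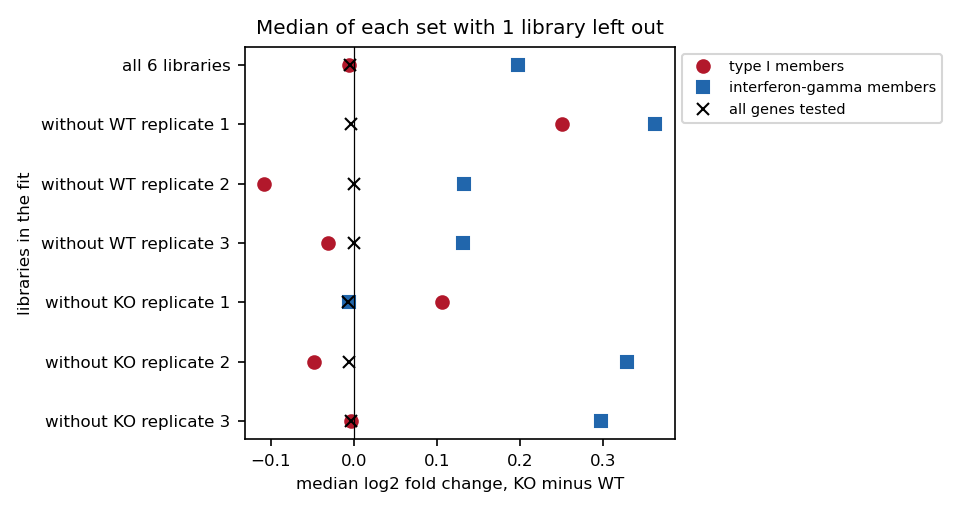
Median log2 fold change (x axis, KO minus WT) of the type I members (red circles), the interferon-gamma members (blue squares) and all genes tested (crosses) with all 6 libraries and with each library left out (y axis). The red circle moves from -0.0059 to 0.25 without WT replicate 1, and the blue square from 0.20 to -0.0060 without KO replicate 1.

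Immunity-related GTPases, which attack the vacuoles of intracellular pathogens under interferon-gamma, lay higher in KO liver in 5 of 5 members, with a median log2 fold change of 0.20. Without KO replicate 1 that was 3 of 5, with a median of 0.030. Ifi47 (chromosome 11, 49076587 to 49096974, plus strand) had the smallest p of all members, at 27.3, 23.8 and 17.5 CPM in WT against 37.9, 29.3 and 23.8 CPM in KO libraries. KO replicate 1 was highest and WT replicate 3 lowest, with overlap in between (log2 fold change 0.41, 95% interval -0.07 to 0.89, edgeR adjusted p = 0.850, and 0.22 without KO replicate 1). Igtp (Irgm3) was at 21.3, 15.2 and 13.6 CPM in WT against 31.0, 16.5 and 17.7 CPM in KO libraries, and its log2 fold change of 0.38 (SE 0.27) went to 0.030 without KO replicate 1. Irgm2, a regulator that keeps effector GTPases inactive, was at 65.6, 48.0 and 45.0 CPM in WT against 80.6, 49.3 and 52.1 CPM in KO libraries. Its log2 fold change of 0.20 went to -0.06 without KO replicate 1. Igtp and Irgm2 overlap in GENCODE M21 (chromosome 11, 58199556 to 58207591 and 58199618 to 58222782), so their counts may not be independent. Irgm1, a regulator that also acts in autophagy, was highest in replicate 1 of both genotypes, at 67.9 CPM (WT) and 62.4 CPM (KO). Iigp1 (Irga6), an effector GTPase, was highest in WT replicate 1, with KO replicate 1 next, at 198, 129 and 111 CPM in WT against 169, 149 and 136 CPM in KO libraries (log2 fold change 0.05, SE 0.21).

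Guanylate-binding proteins, large GTPases that coat pathogens and their vacuoles, gave 3 of 4 members higher in KO liver, and 1 of 4 without KO replicate 1. Gbp2 singled out KO replicate 1 most clearly, at 15.2, 14.2 and 14.2 CPM in WT against 24.7, 11.9 and 12.5 CPM in KO libraries. The other KO libraries lay below all WT libraries, and the log2 fold change of 0.17 (SE 0.27) became -0.25 without KO replicate 1. Gbp6 was at 9.71, 7.44 and 4.59 CPM in WT against 11.9, 8.34 and 8.25 CPM in KO libraries (log2 fold change 0.39, SE 0.28, edgeR adjusted p = 0.850). Of its transcript's 100-base windows, 82.9% occurred in transcripts of other genes, so its count is uncertain. Gbp7 was at 25.4, 17.8 and 18.2 CPM in WT against 25.7, 20.6 and 20.2 CPM in KO libraries, with replicate 1 of each genotype level at the top. Gbp3 lay lower in KO liver and was highest in WT replicate 1, at 16.2 CPM.

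In antigen processing, Tap1 (chromosome 17, 34187553 to 34197225, plus strand), a subunit of the transporter that brings peptides to class I molecules, was at 46.0, 39.8 and 34.7 CPM in WT against 62.5, 39.4 and 42.5 CPM in KO libraries. KO replicate 1 lay above every other library, and the rest overlapped (log2 fold change 0.26, 95% interval -0.17 to 0.69, edgeR adjusted p = 0.850, and 0.026 without KO replicate 1). Psmb8, an immunoproteasome subunit, was highest in KO replicate 1 at 34.6 CPM and at 23.0 to 31.3 CPM in the other libraries.

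**Figure D5:**
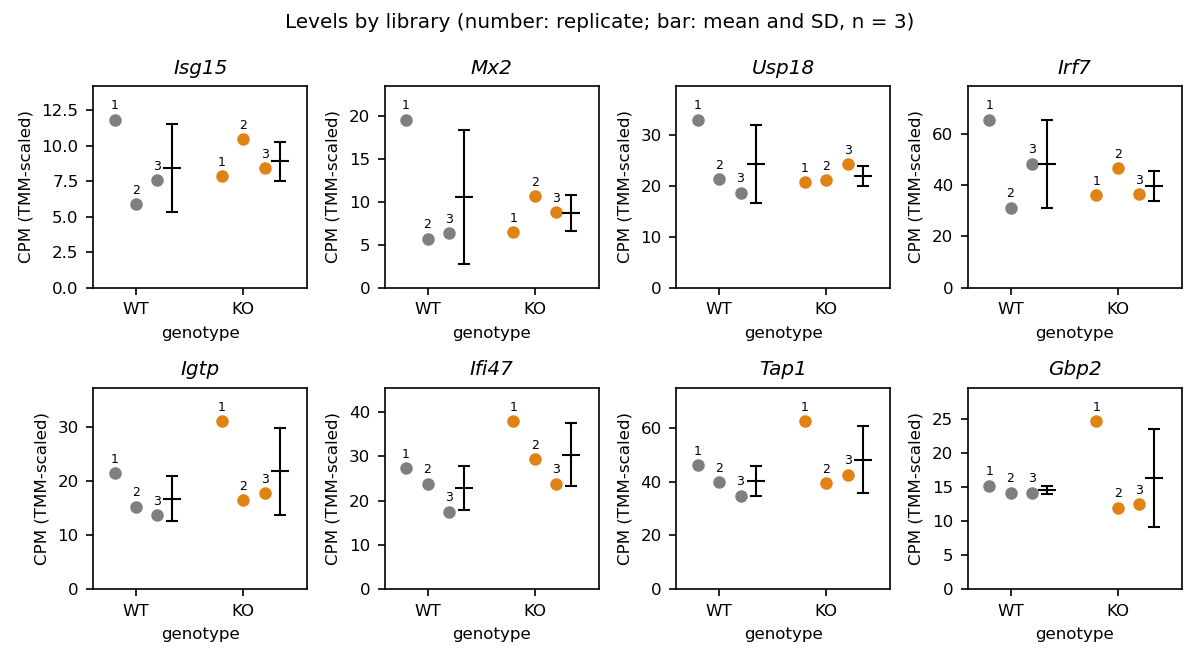
TMM-scaled CPM (y axis, from 0) of 8 genes in each library, with the replicate number over each point and the mean and SD (n = 3) beside each genotype. In the upper row WT replicate 1 is the highest point of each gene, and in the lower row KO replicate 1 is. The genes are chosen examples, and Isg15, Mx2, Igtp and Gbp2 were added after their values were seen. Over the full sets WT replicate 1 was highest in 18 of 27 type I members and KO replicate 1 in 8 of 11 interferon-gamma members.

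Of 79 other genes of the interferon pathway, 67 passed the count filter. Of these, 41 lay higher and 26 lower in KO liver, where 49% of all genes lay higher. None (0) passed edgeR's test, where 0% of all genes did. At an unadjusted p under 0.05 there were 3 of 67 (4.48%, against 5.19% of all genes). The genotypes did not overlap in 3 of 67 genes higher and 2 of 67 lower in KO liver, against 6.21% and 4.9% of all genes. Interferon transcripts were at the limit of detection. Ifng had 4 reads in KO replicate 1 and 0 reads in each other library, and a count of 0 allows up to 3 reads, so a difference was not detectable at this depth. Ifnb1 and Ifna4 had 1 read each, both in WT replicate 1, and Ifnk had 2 reads in WT replicate 2. Ifna1, Ifna2, Ifne, Ifnl2 and Ifnl3 had 0 reads in all libraries.

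The 6 receptor genes listed varied less than the members, with a median span of 1.40-fold between the highest and the lowest library against 1.77-fold. Their span was close to that of genes at large, 1.46-fold over all genes tested and 1.40-fold over genes with a mean CPM of at least 1. Ifnar1 was at 87.9, 88.5 and 88.4 CPM in WT against 87.0, 90.2 and 89.9 CPM in KO libraries, a 1.04-fold span (log2 fold change 0.01, 95% interval -0.16 to 0.19). Ifnar2 was at 66.6, 56.1 and 70.5 CPM in WT against 54.5, 60.4 and 50.3 CPM in KO libraries (log2 fold change -0.22, SE 0.11, edgeR adjusted p = 0.850). Ifngr1, the ligand-binding chain for interferon-gamma, was at 55.2, 69.1 and 85.6 CPM in WT against 67.4, 69.3 and 69.7 CPM in KO libraries. Its partner Ifngr2 was at 70.2, 67.3 and 82.2 CPM in WT against 66.1, 71.7 and 62.6 CPM in KO libraries. The highest library was WT replicate 3 for Ifnar2, Ifngr1 and Ifngr2 and KO replicate 2 for Ifnar1. Of the other listed receptor genes, Ifnlr1 was highest in WT replicate 1 and Il10rb in WT replicate 3.

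Irf1, the secondary activator of the interferon-gamma program, was at 52.0, 46.5 and 40.1 CPM in WT against 66.5, 39.9 and 45.0 CPM in KO libraries. KO replicate 1 was highest, and the log2 fold change of 0.13 went to -0.12 without KO replicate 1.

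The pathway genes with the smallest p were Tlr9, Irf2bp2 and Tgtp2. Tlr9, the endosomal sensor of unmethylated DNA that drives interferon-alpha in plasmacytoid dendritic cells, was at 5.99, 5.42 and 6.79 CPM in WT against 9.41, 7.81 and 8.02 CPM in KO libraries. The groups did not overlap, as in 11.1% of all genes (log2 fold change 0.47, SE 0.15, edgeR adjusted p = 0.850). Irf2bp2, a corepressor that binds Irf2, was at 240, 264 and 290 CPM in WT against 192, 214 and 230 CPM in KO libraries, also without overlap (log2 fold change -0.32, SE 0.12, edgeR adjusted p = 0.850). Tgtp2, another immunity-related GTPase, was at 5.45, 4.87 and 3.25 CPM in WT against 14.1, 4.55 and 7.62 CPM in KO libraries, and 80.4% of its windows are shared with Tgtp1. Across the family members and near copies of the 38 genes, 14 of 19 tested lay higher in KO liver, where 49% of all genes did. KO replicate 1 and WT replicate 1 were each the highest in 7 of 19, against 11.9% and 17.1% of all genes. Near copies such as Tgtp1 and Tgtp2 may share reads, so these genes are not independent. Among the 11 other genes of antigen presentation KO replicate 1 was the highest library in 7 (63.6%), against 11.9% of all genes. WT replicate 1 was the highest in 3 (27.3%), against 17.1% of all genes. These 3 were the class I genes B2m, H2-K1 and H2-D1, the most abundant of the list, with log2 fold changes of -0.10, -0.13 and -0.12. Of the 11 genes, 7 lay higher and 4 lower in KO liver, where 49% of all genes lay higher.

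Marker lists of cells that make or respond to interferon differed between the libraries. All 5 T cell markers (Cd3e, Cd3d, Cd4, Cd8a and Trac) had a log2 fold change above 0, as did 49% of all genes. That of Cd3d was only 0.0053, and its group means were level (WT 0.927, KO 0.925 CPM). Cd3e, Cd4 and Trac were highest in KO replicate 1, Cd3d in WT replicate 1 and Cd8a in KO replicate 3. The summed level of the 5 markers was 13.0 CPM in KO replicate 1, the highest, against 6.86 to 10.4 CPM in the other 5 libraries. Over the genotypes that sum ranged from 7.27 to 10.4 CPM in WT and from 6.86 to 13.0 CPM in KO liver. NK markers ranged from 5.84 to 10.2 CPM in WT and from 6.71 to 7.23 CPM in KO liver, and were at 7.23 CPM in KO replicate 1. KO replicate 1 also held the highest sum in other lists. Markers of plasmacytoid dendritic cells, which make interferon-alpha, were at 8.50 CPM there, with KO replicate 3 next at 8.47 CPM. They were at 5.35 CPM in WT replicate 1, with 3.97 to 7.65 CPM in WT and 4.55 to 8.50 CPM in KO liver. B cell markers were at 5.01 CPM in KO replicate 1 (WT 3.02 to 4.12, KO 2.54 to 5.01 CPM), and hepatocyte markers at 53826 CPM there. Monocyte markers were at 73.7 CPM in WT replicate 1 (WT 60.7 to 116, KO 64.3 to 89.1 CPM), and neutrophil markers at 59.1 CPM there (WT 28.5 to 110, KO 31.4 to 78.3 CPM). The 5 Kupffer cell markers, of resident macrophages, lay lower in KO liver in 5 of 5 cases, as did the 5 neutrophil markers. Over all genes 49% lay higher. The Kupffer sums were 300 to 804 CPM in WT and 176 to 381 CPM in KO liver, with 383 CPM in WT replicate 1 and 381 CPM in KO replicate 1. Higher in KO liver were 2 of 6 NK, 2 of 5 monocyte, 2 of 4 B cell and 4 of 4 tested plasmacytoid dendritic markers. No marker of any list passed edgeR's test. The 5 markers listed for conventional dendritic cells lay higher in 5 of 5 cases, where 49% of all genes did. Their sums were 91.3 to 100.3 CPM in WT and 90.6 to 124 CPM in KO liver, with the highest sum in KO replicate 3. Most of that sum was Itgax, at 75.9 to 108 CPM over the libraries and highest in KO replicate 3, so the sum gives mainly the level of that gene. Xcr1 was also highest there, whereas Flt3, Clec9a and Cd209a were highest in KO replicate 1. No marker of these lists was at 0 in any library. The part of these cells in the interferon-stimulated RNA was not tested.

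Acute phase RNA of hepatocytes split the libraries in a way that only partly followed the interferon sets. The 6 acute phase genes (Saa1, Orm2 and others) summed to 8754, 3601 and 11673 CPM in WT against 4205, 15636 and 3590 CPM in KO libraries. WT replicate 3, with the second-highest sum, was the lowest library for 12 of 27 type I and 7 of 11 interferon-gamma members. KO replicate 1, which led the interferon-gamma set, was among the 3 lowest sums. By contrast, WT replicate 1, which led the type I set, was among the 3 highest. WT replicate 2, lowest for 11 of 27 type I members, was among the 3 lowest. Centred means of the type I and acute phase genes shared their sign in replicates 1 and 2 of both genotypes and differed in replicate 3 of both. A link between them was not tested.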

How the data were processed

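Polyadenylated RNA from whole liver was made into directional libraries and sequenced on an Illumina NovaSeq, per the labels' protocols. The deposited values are raw counts of reads for each Ensembl ID. Per the submitters' processing notes, DESeq2 1.30.0, featureCounts 1.6.3 and STAR 2.7.6a were in use, with GRCm38 and mm10 listed as builds and no roles stated. How strand, multi-mapping reads and gene models were set is not given in the sources used here, so overlapping genes and near copies may share or lose reads. Every pair of libraries differed by more than sampling noise (chi-square per degree of freedom 10.4 to 69.6).

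Symbols and positions came from GENCODE M21 (52135 of 55416 IDs). Levels are CPM scaled by TMM, logged levels used a prior count of 2, and levels between genes were compared per kb of merged exon. The test was edgeR 4.0.16 in R 4.3.3 (filterByExpr with minimum count 10 and minimum total count 15, glmQLFit, glmQLFTest, genotype alone, Benjamini-Hochberg over 17083 genes, threshold 0.05), checked on simulated counts. SE and 95% intervals derive from the F statistic. The common biological coefficient of variation was 0.171.

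The members, the lists and the alternatives were chosen with earlier results of these data known. Values in every library are given for the member with the highest mean CPM and the one with the smallest p of each role, fixed pathway genes and the 3 pathway genes with the smallest p, except 1 that is not reported here; Isg15, Ifit1, Mx2, Gbp2, Igtp and Irgm2 were added after their values were seen. The counts of calls, the medians over the lists and the fold changes were recomputed with limma-voom (limma 3.58.1), DESeq2 1.42.0, a robust fit, 3 other scalings (DESeq2 size factors, upper quartile, library size only), no count filter, a minimum CPM of 1 in 3 libraries, the replicate block, a threshold of 0.1 and each library left out. Leaving out WT replicate 1 and KO replicate 1 together was added after seeing the data.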

Additional observations from a re-analysis of the deposited data

How the results depend on the processing

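No member and no other pathway gene was called under any alternative. Over all genes, 3 were called without a count filter, 8 by DESeq2 and 0 to 2 with 1 library left out (2 without WT replicate 3), none of them a member. The 23 of 38 members higher in KO liver became 29 with library size only, which put the median of all genes at 0.075, 28 with the upper quartile, 29 with limma-voom and 18 to 34 with 1 library left out. The type I median minus the interferon-gamma median, -0.20, ran from -0.38 to 0.11 with 1 library left out (0.11 without KO replicate 1). Without WT replicate 1 and KO replicate 1 together it was 0.15, the type I median was 0.33, 25 of 27 type I members and 8 of 11 interferon-gamma members lay higher in KO liver, where 49.9% of all genes did, and 14 of 38 members (12 type I) differed in sign from the fit to all libraries. Of the genes whose fold change the report gives, those whose sign differed, Irf1 included, stood at Bst2 0.016, Gbp2 -0.21, Ifit1 0.59, Irf1 -0.030, Irf7 0.063, Mx2 0.69, Rsad2 0.15, Stat2 0.16 and Usp18 0.18. Under other fits, scalings and filters the signs of 7 of 38 members turned (Cmpk2, Ifi35, Ifit1, Ifit3, Irf9, Stat2 and Zbp1), all of them type I. The sign of Stat2 turned with library size only (0.072), the upper quartile (0.023), limma-voom (0.0035) and the replicate block (0.0048), that of Ifngr1 with library size only (0.057) and the upper quartile (0.012), and that of Ifit1 with limma-voom (0.022). The cause of these turns was not tested. With each library left out in turn, 22 of 38 members (16 type I and 6 interferon-gamma) turned sign at least once. The log2 fold changes of those described by their fold change, and of 4 other genes whose sign turned there or above, ran as follows: Bst2 -0.20 to 0.063, Ddx58 -0.048 to 0.31, Gbp2 -0.25 to 0.36, Gbp7 -0.0060 to 0.29, Ifit1 -0.53 to 0.49, Ifngr1 -0.18 to 0.14, Iigp1 -0.11 to 0.33, Irf1 -0.12 to 0.27, Irf7 -0.52 to -0.0073, Irgm2 -0.061 to 0.38, Isg15 -0.12 to 0.40, Mx2 -0.58 to 0.52, Rsad2 -0.36 to -0.014, Stat2 -0.099 to 0.17 and Usp18 -0.30 to 0.13. Samples of the 2 genotypes share replicate numbers. Same-numbered deviations from the group means correlated at -0.026, -0.44 and -0.31 across genes. Such deviations sum to 0 within each genotype, so with 3 libraries each these values cannot show whether the numbers pair the samples. With the replicate block 0 genes and 0 members were called. In that fit 537 genes had an unadjusted p under 0.05 against 886 without it, and the interferon-gamma median was 0.18. The 95% intervals in the report rest on the spread between 3 livers per genotype, which edgeR draws toward the trend over all genes. They do not reflect a gene's own spread alone.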
